A study of Homo sapiens with 10 samples.

Results

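The sites described here are intron positions in HUDEP-2 cells that were read partly as edited after expression of an ADAR deaminase fusion. A member is a site of the ADARcd tables that lies in a GENCODE release 29 gene body but in no exon of a basic transcript, and whose edited reads summed over the 5 ADARcd libraries are at most 40% of all its reads. The rule found 3064 members, which is 34.5% of the 8877 intron sites and 18.3% of the 16768 ADARcd sites. The members were thus chosen by their edited and reference reads summed over the libraries, so their levels are given as descriptions.

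HUDEP-2 is an immortalised human erythroid progenitor line. Every construct was driven by a doxycycline-inducible TRE promoter, and 1 library was made per construct, so no difference here has a replicate check. The 5 libraries are GFP-7aa-ADARcd, the control bait, and FAM46C-7aa-ADARcd, FAM46C-27aa-ADARcd, FAM46C-47aa-ADARcd and FAM46C-74aa-ADARcd, which place a linker of 7, 27, 47 or 74 amino acids between the poly(A) polymerase FAM46C and the catalytic domain of ADAR. All 5 received doxycycline, for 48 h in the sample labels and for 24 h in the series text. No library without a deaminase was analysed here, so editing by the fusions and by the cells' own ADAR cannot be told apart.

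ADAR enzymes turn adenosine into inosine in double-stranded RNA, and sequencing reads inosine as guanosine. In human cells most such editing falls in Alu repeats that lie close together in opposite orientation, in introns and 3' untranslated regions, and fold back on each other. Alu repeats derive from 7SL RNA, the RNA of the signal recognition particle. A catalytic domain without the enzyme's own RNA-binding domains is used as a tag that leaves edits on RNA near a bait protein.

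Most members were edited in few reads. The pooled share, that is the edited reads of all 5 libraries over all reads, ran from 0.198% to 40% with a median of 20% and quartiles of 10.7% and 30.8%. Pooled reads per member ran from 5 to 1011 with a median of 15. In 2542 members (83.0%) the library with most edited reads had exactly 2, and 60 members reached 5 edited reads in a library. At the limit itself 268 members lay at exactly 40%, the next value below was 39.3% at 1 site, and the nearest value above was 40.2% at 1 site. Intron sites above the limit numbered 5813, had a median of 3 pooled reads, and were edited in every read at 3533 sites (60.8%).

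Summed over all members, the control bait had the highest edited share. GFP-7aa-ADARcd had 3909 edited reads of 29926, a share of 13.1% (95% Wilson interval 12.7 to 13.4). FAM46C-7aa-ADARcd had 3465 of 32841, or 10.6% (10.2 to 10.9). The 27, 47 and 74 aa fusions had 896 of 11192, 664 of 8806 and 667 of 8525, or 8.01% (7.52 to 8.52), 7.54% (7.01 to 8.11) and 7.82% (7.27 to 8.41). These intervals and all others given here hold counting error alone, because each construct has 1 library. Whether PCR copies of a molecule were counted as separate reads was not tested, and such copies would make the intervals too narrow. Reads per member were a median of 5 and 6 in the GFP and 7 aa libraries and of 2, 1 and 1 in the 27, 47 and 74 aa libraries, where 27.6%, 33.1% and 33.2% of the members had no read.

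The order of the fusions was not the same under other choices of sites. A member has at least 2 edited reads in some library, and the libraries took part in this unequally: 62.9% of members had an edited read in the GFP library, 55.8% in the 7 aa library, and 18.9%, 14.7% and 15.1% in the 27, 47 and 74 aa libraries. When each library was measured at intron sites whose entry and whose 40% limit came from the other 4 libraries, the shares were 7.60% for GFP and 5.54%, 6.31%, 5.84% and 6.12% for the 7, 27, 47 and 74 aa fusions. At the 1327 members read in all 5 libraries they were 8.67%, 6.58%, 6.34%, 5.89% and 6.06%. The GFP library was highest in both, while the 7 aa fusion was lowest in the first and next to GFP in the second.

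For a comparison in which neither library of a pair chose the sites, intron sites were chosen with the 3 libraries outside the pair. At 398 such sites 503 of 7562 GFP reads were edited, or 6.65% (6.11 to 7.24), and 429 of 8202 reads of the 7 aa fusion, or 5.23% (4.77 to 5.73). The odds of a read being edited were 0.775 times those of GFP (0.678 to 0.885). The 7 aa share was higher at 101 of the sites, lower at 152 and equal at 145. For the 27, 47 and 74 aa fusions, at 1007, 1013 and 1005 sites, the odds ratios to GFP were 0.868 (0.767 to 0.982), 0.860 (0.754 to 0.981) and 0.871 (0.761 to 0.997). Without repeated gene families, whose reads can be split among near-identical copies, the 7 aa ratio was 0.785 (0.670 to 0.920), and the intervals for 27, 47 and 74 aa included 1, at 0.936 (0.812 to 1.08), 0.924 (0.794 to 1.08) and 1.01 (0.865 to 1.17). These ratios share the GFP library.

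Exon sites chosen in the same way moved further in the 7 aa library than intron sites did. The 7 aa odds ratio to GFP was 0.192 (0.170 to 0.217) in coding sequence and 0.375 (0.352 to 0.399) in the other exon sites, at 2633 and 1136 sites. The intron ratio was 4.03 times that of coding sequence (3.36 to 4.84) and 2.07 times that of the other exon sites (1.79 to 2.40). At 74 aa the order was turned: the intron ratio was 0.654 times that of coding sequence (0.554 to 0.772) and 0.726 times that of the other exon sites (0.627 to 0.841). At 47 aa these 2 comparisons gave 1.05 (0.886 to 1.25) and 1.00 (0.866 to 1.16), and at 27 aa 0.886 (0.757 to 1.04) and 0.835 (0.729 to 0.956). These intron ratios include repeated gene families. Without them the intron ratio to GFP was 1.01 at 74 aa and 0.936 at 27 aa, against 1.20 and 1.04 at the other exon sites with families kept. The comparison with exon sites was not repeated without families. Each fusion was measured at its own set of sites, so the fusions are not compared at the same sites. At these independently chosen sites the GFP share was 6.65% in introns, 4.02% in the other exon sites and 0.578% in coding sequence. With the 40% rule and all libraries it was 13.1% at members, 5.21% at the other exon sites and 1.06% in coding sequence, values that the rule and the entry of sites used.

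Site by site the 7 aa pair was scattered widely. At the 680 members with 10 or more reads in both libraries the median share was 7.14% in the GFP library and 3.85% in the 7 aa library. The 7 aa share was lower at 394 members, higher at 233 and equal at 53. The median difference, 7 aa minus GFP, was -3.23 percentage points, with quartiles of -9.29 and 3.92. These members were chosen with the reads of both libraries. Of all members, 62.9% had an edited read with GFP and 55.8% with 7 aa, so the direction of these counts is a description. At the 398 sites chosen with the 3 libraries outside the pair, the 7 aa share was lower at 152, higher at 101 and equal at 145.

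**Figure D1:**
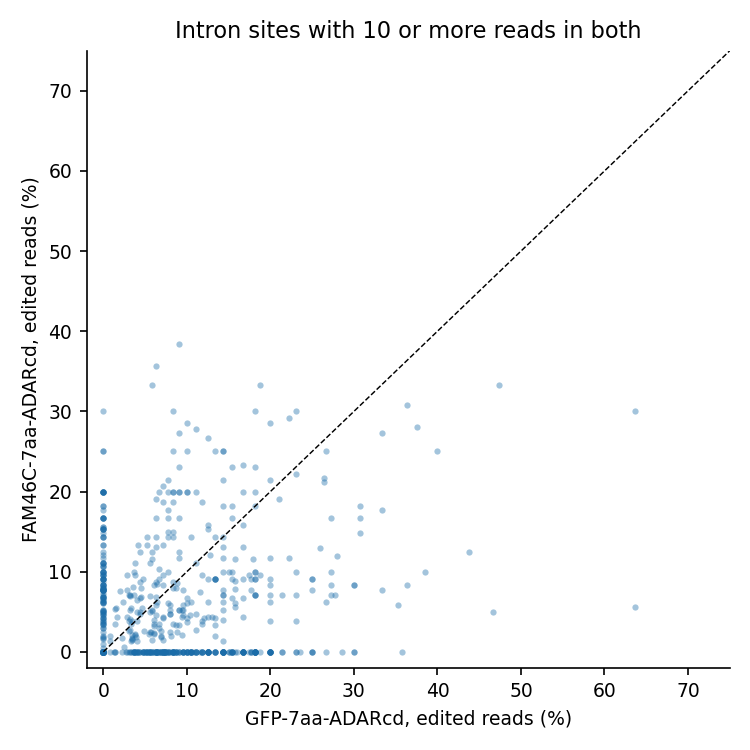
Edited reads in percent at the 680 members with 10 or more reads in both 7 aa libraries, GFP on the horizontal and FAM46C on the vertical axis, with 1 point per site and the line of equal shares dashed. Many points lie on an axis, where a library had no edited read, and 394 lie below the line against 233 above it. The members were chosen with the reads of both libraries, so this split is a description.

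No single member passed the test of a fusion against GFP. Fisher's exact test, two-sided and adjusted by Benjamini-Hochberg over all ADARcd sites read in both libraries, called 0 of 2910 members at 7 aa, 0 of 2183 at 27 aa, 0 of 2016 at 47 aa and 0 of 2008 at 74 aa. Over all ADARcd sites it called 0.677%, 0.212%, 0.102% and 0.0408%. Members tested had a median of 6 reads in each library at 7 aa, and of 2 fusion reads and 7 GFP reads at each longer linker. Only 680, 231, 169 and 167 members had 10 or more reads in both libraries. At such depths most members could hardly pass, so the absence of calls does not show that the shares were equal. The lowest adjusted p-values of members were 0.170, 0.535, 0.970 and 1.00. At an unadjusted p under 0.05, 10 members were higher with 7 aa and 33 lower, 17 were higher with 27 aa and 1 lower, 24 were higher with 47 aa and 2 lower, and 13 were higher with 74 aa and 2 lower. Most of these had 2 or more edited reads only in the library in which they were higher: all 10 of those higher with 7 aa and 27 of the 33 lower, 12 of 17 higher with 27 aa, 21 of 24 with 47 aa and 11 of 13 with 74 aa. They entered the tables through that library, so the direction of these counts is a description. The same test against the overall odds ratio of each pair also called 0 members. Each test compares 2 libraries, not conditions.

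Members lay close together. Chaining members whose neighbour was within 100 nt gave 466 clusters that hold 1306 members (42.6%), and 1758 members stood alone. The share in clusters was 45.2% for other exon sites at or under 40%, 11.9% for intron sites above 40% and 5.36% for coding sites at or under 40%. Clusters spanned a median of 53 nt and at most 418 nt, 47 had 5 or more sites, and the largest had 13. Clustered members had a median pooled share of 15.7% at 21 reads, and members that stood alone 25% at 11 reads. An edited read was present in 2 or more libraries at 57.0% of the clustered members and at 36.7% of the others. Of the clusters, 41 were edited in all 5 libraries and 86 in 1.

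The largest cluster lay in NACA, which encodes the alpha subunit of the nascent polypeptide-associated complex. Its 13 members fall in 418 nt at chromosome 12, positions 56730464 to 56730881, 3267 nt from the nearest exon. The cluster was edited in 17.9% of 162 reads with GFP, 11.7% of 214 with 7 aa, 16.7% of 66 with 27 aa, 12.5% of 72 with 47 aa and 14.3% of 42 with 74 aa, and all 5 intervals overlap. Single members ranged from 3.03% to 25.7%. The highest was position 56730651, at 25.7%, followed by the neighbouring positions 56730770, 56730775 and 56730777 at 25.5%, 25.5% and 24.4%.

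SYCP2L, a gene related to the meiotic synaptonemal complex protein SYCP2, held most members, 38 sites in 13 groups. Its 11-site cluster at chromosome 6, positions 10897538 to 10897655, was edited in 7.42%, 6.18%, 4.21%, 7.32% and 6.78% of reads with GFP and the 7, 27, 47 and 74 aa fusions, at 337, 615, 95, 82 and 118 reads. A single position stood out among the members there. Position 10897647 was edited in 8 of 30, 14 of 56, 1 of 8, 2 of 8 and 4 of 9 reads, 26.1% over all, while the other 10 positions lay between 2.63% and 8.13%. Position 10897646, 1 nt away, was at 2.63%. AL024498.2 overlaps these introns, and the files do not state strand, so the source gene is uncertain.

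The same pattern of 1 high position among the members recurred in ELOVL5, a fatty acid elongase. Its 9-site cluster at chromosome 6, positions 53292586 to 53292783, was edited in 11.7% of 247 reads with GFP, 5.39% of 204 with 7 aa, 16.1% of 56 with 27 aa, 10.3% of 78 with 47 aa and 13.9% of 36 with 74 aa. Position 53292753 was edited in 12 of 32, 7 of 25, 4 of 11, 3 of 9 and 1 of 6 reads, or 37.5%, 28%, 36.4%, 33.3% and 16.7%. The other 8 positions lay between 3.49% and 8.93% over all libraries. A further ELOVL5 cluster of 8 sites ran from 53293380 to 53293568, with its highest position, 53293458, at 30.3%. The rule leaves out intron sites above 40%, of which ELOVL5 has 4 and SYCP2L 20. Over all genes 316 members lie within 100 nt of such a site. A high position here is thus the highest among members, and more strongly edited neighbours are not described.

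CYP4F26P, a pseudogene of a cytochrome P450, held 37 members. Its 11-site cluster at chromosome 9, positions 33595882 to 33596023, was edited in 6% of 150 reads with GFP, 12.5% of 305 with 7 aa, 11.4% of 44 with 27 aa and 13.9% of 72 with 47 aa, and in 0 of 6 reads with 74 aa. Single positions there ranged from 4% to 19.2%, with no position far above the rest. Clusters of 8 sites in SMG1P5 and AC008736.1 were edited in 15.2% and 16.1% of all reads.

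RRP36, a ribosomal RNA processing factor, had 32 members in 8 groups, and all but 2 of them were in clusters. Over the gene the shares were 7.23% with GFP, 3.61% with 7 aa, 1.47% with 27 aa, 2.32% with 47 aa and 2.65% with 74 aa. In its 9-site cluster at chromosome 6, positions 43030332 to 43030479, 23 of 315 GFP reads and 19 of 441 reads of the 7 aa fusion were edited, or 7.30% and 4.31%. No read of 109 was edited at 27 aa, which allows a share of up to 2.75%, and 47 and 74 aa had 1.63% and 2.91%. Over all 5 libraries no position of that cluster exceeded 9.09%. The same position, 43030369, was at 15.8% with GFP, with 6 of 38 reads edited.

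Sequence was at hand for 4 or more sites of 8 smaller clusters outside chromosome 8, and 7 of these lie in windows that resemble 7SL RNA. In SGK494, on the minus strand of chromosome 17 at positions 28609886 to 28610039, the 6 sites from 5' to 3' were edited in 23.1%, 7.69%, 12%, 14.8%, 20% and 38.9% of the reads of all 5 libraries, with 18 to 27 reads a site. In OSBPL1A, which encodes an oxysterol-binding protein, 5 sites of chromosome 18 between positions 24347679 and 24347798 gave 5.77%, 8%, 18.6%, 21.2% and 7.84% in the same order. TPTEP1, a pseudogene, ran from 4.55% to 25.6%. The range was narrower in the others: 4.17% to 8% in ATAD3B, 4.65% to 10.4% in N4BP2L2, 10.3% to 18.2% in CD46, 20% to 28.6% in RPL7L1 and 2.35% to 5% in FAM120AOS, whose windows were too short for the search. In all 8 the intervals of the lowest and the highest site overlap.

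Tests of groups gave 3 differing groups among the members. Edited and unedited reads were summed over each chain of neighbours (single sites included) and tested as above, with adjustment over all ADARcd groups at or under 40%, of which 1.19%, 0.343%, 0.211% and 0.0987% were called at 7, 27, 47 and 74 aa. Among member groups 1 of 2094 was called higher and 1 lower at 7 aa, 1 of 1512 higher at 27 aa, and 0 of 1383 and 0 of 1372 at 47 and 74 aa. At an unadjusted p under 0.05 27 groups were higher with 7 aa and 51 lower, 21 were higher with 27 aa and 8 lower, 26 were higher with 47 aa and 8 lower, and 14 were higher with 74 aa and 4 lower. These groups were not chosen independently of the libraries compared, so the directions are again a description. Sites in a group can be covered by the same reads, so their counts are not independent and these p-values are too small by an unknown amount.

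FAM120AOS, a gene antisense to FAM120A, was the group that was higher with FAM46C-7aa-ADARcd. Of the reads over its 5 sites, 0 of 148 were edited with GFP, which allows up to 2.03%, and 10 of 131 with the 7 aa fusion, or 7.63% (4.2 to 13.5). The 27, 47 and 74 aa fusions had 1 of 71, 0 of 31 and 1 of 29. All 5 positions had 2 edited reads in the 7 aa library and in no other, so they entered the tables through the library in which they are high and the call is no independent evidence of a difference. Each had exactly 2 edited reads there, over 48 nt at chromosome 9, positions 93448410 to 93448457, and whether these are the same reads was not tested.

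RPL7L1, a paralog of the ribosomal protein RPL7, was the group that was lower. Its 4 sites, at chromosome 6, positions 42881861 to 42882035, had 8 of 13 reads edited with GFP, or 61.5% (35.5 to 82.3), and 0 of 14 with the 7 aa fusion, which allows up to 21.4%. Each position had exactly 2 edited GFP reads, of 3 or 4, and none in another library. The sites thus entered through GFP, so this call is no independent evidence either, and it was lost against the overall odds ratio and when neighbours were chained within 50 nt. The longer linkers had 0 of 6, 0 of 1 and no reads.

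TPTEP2-CSNK1E, a readthrough of a pseudogene and the gene of casein kinase 1 epsilon, was higher at 27 aa. Its 6 sites at chromosome 22, positions 38355671 to 38355857, had 2 of 43 reads edited with GFP, or 4.65%, 10 of 48 with 7 aa, or 20.8%, and 11 of 24 with 27 aa, or 45.8% (27.9 to 64.9). The adjusted p at 27 aa was 0.0323 (Fisher's exact test), while at 7 aa it was 0.749. The 47 and 74 aa fusions had 0 of 5 and 0 of 14. Of the 6 sites, 5 had 2 or more edited reads in the 27 aa library, 3 of them there alone, and 3 had 2 or more in a library outside the pair. The group entered in part through the library in which it is high, so the call is no independent evidence of a difference. TPTEP2 has a near-identical copy, TPTEP1, that also holds members, so reads may be split between them.

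The 8-site group of NMRAL1, which encodes an NADPH-sensing protein, missed the threshold with an adjusted p of 0.0525 (Fisher's exact test) at 7 aa. It had 26 of 241 reads edited with GFP, or 10.8%, and 8 of 257, or 3.11%, with the 7 aa fusion. Of its 8 sites, 7 had 2 or more edited reads in the GFP library, 3 of them there alone. The group passed, with an adjusted p of 0.0384 (Fisher's exact test), when only groups with 10 or more reads in both libraries were tested. Its sites were not chosen independently of GFP, so that call is no independent evidence of a difference.

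Members shared sequence features that the rule did not use. The reference base was known for 333 members (10.9%), of which 284 lie in genes of 1 strand, and it was A on that strand at 281 of these (98.9%). This was not particular to members. The same share was 99.0% for intron sites above 40%, 98.7% for coding sites at or under 40% and 99.6% for the other exon sites. Whether the authors selected sites by this base is not stated. On the 5' side of the edited A, 38.7% of 279 members had T (U in the RNA), 28% A, 26.5% C and 6.81% G. Coding sites at or under 40% had T at 16.4% and G at 28.8%, and the other exon sites T at 37.1% and G at 8.28%. Intron sites above 40% had T at 29.7% and G at 12.8%. On the 3' side G was commonest, at 46.6% of members, 46.2% of coding sites and 48.2% of the other exon sites. At intron sites above 40% it was 31.3%, close to T at 30.3%. ADAR is known to disfavour G on the 5' side and to favour G on the 3' side. Sites of a cluster share sequence, so these shares carry no test.

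Most members with sequence lay in Alu-like sequence. Of 302 member windows of up to 150 nt to each side, 226 (74.8%, 69.6 to 79.4) matched 7SL RNA in a BLAST search at an E-value up to 1e-05. The matches had a median identity of 82.4%. The same search matched 63.4% of other exon sites at or under 40%, 33.3% of intron sites above 40% and 0.884% of coding sites at or under 40%. Of the members with a match 46.9% lay in clusters, and of those without one 11.8%. Where the orientation could be read, 84 members (44.2%) lay in the same sense as 7SL RNA and 106 (55.8%) in the opposite sense. An inverted match within the same stretch, of at least 50 nt and 75% identity, was found for 91 of 211 members (43.1%) in stretches of 600 nt or more, with a median length of 205 nt, identity of 79.6% and distance of 713 nt.

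Summed edited shares were higher at members with a 7SL match in most libraries. They were 10.6%, 9.02%, 8.22%, 5.41% and 9.39% with GFP and the 7, 27, 47 and 74 aa fusions at members with a match, and 5.96%, 4.26%, 3.59%, 5.41% and 4.65% at the 76 members without one. The level was thus higher with a match in 4 of 5 libraries and the same to 3 digits at 47 aa. The median pooled share was 14.3% with a match and 11.4% without. Members without a match were read more deeply. With GFP they had 1442 reads at 76 sites, against 2577 at the 226 with a match. The rule and the entry of sites used these shares, so they are a description, and the part that depth plays was not tested. Members with known sequence lie in annotated exons of other transcripts and are not a sample of all members.

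Members fell in 1259 host genes. In 693 of these there was 1 member and in 145 there were 5 or more, and 84.5% of members had a protein-coding host. The median distance to the nearest exon of the host was 1545 nt, and 85 members (2.77%) lay within 100 nt of an exon. More than 1 gene spanned 668 members (21.8%), and genes of both strands spanned 339. After SYCP2L, CYP4F26P and RRP36, the hosts with most members were NPIPB4 and NPIPB5 with 27 each, STAG3L3 and TCAM1P with 21, NPIPB3 with 20, AC087632.1 with 19, IL4I1 with 18, ELOVL5, NACA and FP671120.1 with 17, and STAG3L1 and RBM14-RBM4 with 16. NPIPB and STAG3L genes, CYP4F26P and several others belong to families with near-identical copies. Such families held 324 members (10.6%) and 22.4% of the member reads, and their placement in a given copy is uncertain.

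Among erythroid genes, 16 of the 53 listed hosted 47 members, and 32 had an ADARcd site of any kind. Their shares were 6.48%, 6.38%, 10.2%, 10.9% and 5.8% with GFP and the 7, 27, 47 and 74 aa fusions, over 772, 768, 236, 183 and 207 reads. MYB, a transcription factor of erythroid progenitors, led with 12 members. They were edited in 13 of 111 reads with GFP (11.7%) and 18 of 128 with 7 aa (14.1%). The 27, 47 and 74 aa fusions had 4 of 24 (16.7%), 12 of 33 (36.4%) and 10 of 45 (22.2%). Positions 135206534 and 135205888 had 2 edited reads only at 47 aa, and 135206317 and 135206621 only with GFP. Such sites entered through the library in which they are high, and near sites can share reads, so these shares are a description. Position 135206520 on chromosome 6 was edited in 1 of 16, 5 of 14, 2 of 4, 2 of 4 and 1 of 5 reads, and position 135204599 in 1 of 7, 4 of 16, 1 of 3, 3 of 7 and 1 of 3. Both were edited in all 5 libraries, and neither passed the test.

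Other erythroid hosts had fewer members. TFR2, a transferrin receptor that senses iron, and CA1, an erythrocyte carbonic anhydrase, had 7 members each, with pooled shares of 4.26% to 25% and 4.55% to 23.5%. LMO2, an erythroid transcriptional cofactor, had 3 members at 4.35% to 7.41%. TFRC, the transferrin receptor of iron uptake, had 3 at 4.76% to 16.7%. SPTB, the beta spectrin of the red cell membrane, had 2 deeply read members at 1.11% of 360 reads and 0.389% of 514 reads. EPOR, the erythropoietin receptor, had a single member, edited in 2 of 42 reads, both with the 7 aa fusion.

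Genes that bind or sense double-stranded RNA hosted 11 members in 5 of the 25 genes listed, of which 14 had an ADARcd site of any kind. PRKRA, the activator of the kinase PKR, had 6 of them, at 12.5% to 28.6%, and AC009948.1 overlaps 5. SFPQ, PSPC1 and NONO, nuclear proteins of paraspeckles, had 1 each, at 0.943%, 33.3% and 22.2%. Genes listed as known hosts of editing gave 3 members in 2 of 24 genes, NUP43 and NARF, while 18 of the 24 had an ADARcd site of any kind.

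The deepest members lay in ribosomal RNA units. FP671120.1 and FP236383.1 are long noncoding RNA models on chromosome 21 that span the RefSeq 45S units RNA45SN2 and RNA45SN3, and 25 members lie inside those units. They held 9598 reads, 10.5% of all member reads, and were edited in 4.46%, 3.78%, 2.44%, 2.68% and 1.79% of reads with GFP and the 7, 27, 47 and 74 aa fusions. Of the 25, 20 lay in the transcribed spacers, at 4.16% of reads, and 5 in the 18S or 28S parts, at 0.852%. Of the 10 deepest members 7 lie in RNA45SN2, at 0.198% to 1.61%, and the others in AC010894.3, TAF1D and SPTB, at 0.345%, 0.351% and 0.389%. The units are near-identical copies, so reads may be split between them.

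A spacer position of the rRNA units was edited at a steady level. In RNA45SN2, position 8208325 was edited in 27 of 102, 26 of 120, 10 of 49, 6 of 25 and 4 of 23 reads, or 26.5%, 21.7%, 20.4%, 24.0% and 17.4%. In RNA45SN3 the same place of the unit, position 8391372, gave 26.5%, 21.1%, 21.7%, 26.9% and 24.0%. Because reads may be split between the near-identical units, the values of the 2 units cannot be taken as separate measurements. These levels do not separate the libraries, and none of the differences passed the test. In all, 4 places were members in both units, at place 1931 of the unit with 1.24% and 1.98%, at 2273 with 6.24% and 6.25%, at 2310 with 2.55% and 2.99%, and at 2338 with 22.9% and 23.7%. Whether these positions differ among the many copies of the unit in the genome was not tested.

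Few members were edited in every library. An edited read was present in 1 library at 1673 members (54.6%), in 2 at 905, in 3 at 334, in 4 at 119 and in all 5 at 33. Of those 33, 7 lie in the rRNA units and 3 in SYCP2L. Of the others, SLC20A2, a phosphate transporter, had a site at 36.4%, 30.8%, 33.3%, 40% and 50% with GFP and the 7, 27, 47 and 74 aa fusions, at 11, 13, 6, 5 and 4 reads. PRR11 had a site edited in 6 of 38, 6 of 52, 2 of 17, 2 of 11 and 5 of 15 reads. NFKBIB, an inhibitor of NF-kappa-B, had a site 51 nt from an exon that was edited in 2 of 62 and 4 of 77 reads with GFP and 7 aa, 7 of 25 with 27 aa, 1 of 19 with 47 aa and 3 of 12 with 74 aa.

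Members make up 18.3% of all ADARcd sites. Of the 36 sites at 7 aa in the authors' deposited table of sites raised in a fusion, 10 (27.8%) are members. In the authors' deposited tables for 27, 47 and 74 aa, members are 17 of 228 sites (7.46%), 24 of 366 (6.56%) and 13 of 364 (3.57%). In all, 62 members are in any of the authors' deposited tables, and 2, in KCNH2 and NFKBIB, are in 2 of them. The authors' tables come from the same libraries, so these shares are no independent evidence. All 10 members at 7 aa had 2 or more edited reads only in the 7 aa library, through which they entered. The lowest p-values of members in the authors' deposited tables, which are not adjusted, were 0.0110, 0.00191, 0.00853 and 0.00833.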

How the data were processed

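RNA editing was measured by sequencing of poly(A) RNA from HUDEP-2 cells, and the 5 ADARcd libraries of the 10 in the series were used. For each library the authors deposited counts of reference and edited reads per site, not normalised. They also deposited tables of sites with a p-value for each fusion, of which 48 per-sample columns match no single label and were not used. HISAT2 2.2.1, SAMtools 1.18, Picard 2.27.1 and GRCh38 are named in the submitters' processing notes. The sources used here do not say how sites were selected.

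Members, gene lists and tests were chosen with earlier results of these data known. Sites were placed with GENCODE release 29. Edited shares are sums of reads with 95% Wilson intervals. Fisher's exact tests (scipy 1.17.1) with Benjamini-Hochberg adjustment covered the whole ADARcd table, called at an adjusted p under 0.05, and were tested on simulated data. The simulation made large changes, and only at deeply read sites. It thus does not show how often smaller changes at members with few reads would be found. BLAST 2.17.0 compared windows with RN7SL1 and RN7SL2. A share of 0 is given with the limit that 3 counts allow. RefSeq gene positions (GRCh38.p14) located the rRNA units.

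Named were the 15 hosts and the 10 clusters with most members, the 10 deepest members, up to 5 called sites and clusters per direction and fusion, and hosts of the fixed lists. Other names, the repeated families and the choice of sites with the other libraries were chosen after values were seen. Repeat annotation of the genome was not used here, so likeness to 7SL RNA took its place. Some sequences and 1 gene are not reported here.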

Additional observations from a re-analysis of the deposited data

How the results depend on the processing

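No paired analysis was possible because each construct has 1 library, and no replicate could be left out. Summed shares, in the order GFP, 7, 27, 47 and 74 aa, were 10.7%, 8.48%, 6.76%, 6.16% and 6.62% with a 30% limit (2292 members), 7.85%, 7.14%, 6.63%, 5.16% and 7.06% at the 281 members with A on the host strand, and 6.74%, 4.90%, 5.44%, 5.14% and 5.31% where another library had 2 edited reads. They were 8.67%, 6.58%, 6.34%, 5.89% and 6.06% with a read in all 5 libraries, and 16.6%, 13.6%, 10.1%, 9.13% and 9.47% with the 40% limit set without the library measured. With entry and limit from the other 4 libraries they were 7.60%, 5.54%, 6.31%, 5.84% and 6.12%, and without repeated families 14.1%, 11.4%, 9.26%, 8.66% and 9.20%. Leaving out exons of all transcripts moved GFP to 13.8% and 7 aa to 11.1%. The odds ratios to GFP at members read in both libraries, 0.779 at 7 aa and 0.692, 0.676 and 0.711 at 27, 47 and 74 aa, became 0.868, 0.860 and 0.871 for the longer linkers at sites chosen in the other 3 libraries, and 0.936, 0.924 and 1.01 also without repeated families, while 7 aa gave 0.775 and 0.785. The GFP share was the highest under every alternative for the summed share. The cause of these shifts was not tested, except that each alternative measures other sites.

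The count of member groups called lower at 7 aa was 1, and became 2 with at least 10 reads, 0 against the overall odds ratio and 0 within 50 nt. At 27 aa it was 0, and became 1 within 200 nt, an RRP36 group with 0 of 158 reads edited against 30 of 408 with GFP. The 13 sites of that group can be covered by the same reads and were not chosen independently of GFP. The call is thus no independent evidence of a difference. No single member was called under any of the 5 alternatives tried for single sites. Members in clusters made up 44.6% with a 30% limit, 35.6% with A on the host strand, 32.6% within 50 nt, 48.4% within 200 nt and 40.4% without repeated families. Members tested had a median of 2 reads or fewer in the longer-linker libraries, which limits the precision of single-site values.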

Other observations

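Members were unevenly spread over chromosomes. Chromosome 19 held 11.7% of the members against 5.54% of the intron sites above 40%, and chromosome 16 held 9.63% against 5.13%, while chromosome 2 held 4.05% against 8.21%. These are shares of sites, with no test.

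Of 643 zinc finger genes with a ZNF symbol, 144 had an ADARcd site of any kind, and 34 hosted 79 members, 2.58% of all members. Their reads were edited in 20.7%, 15.7%, 15.2%, 16.5% and 15% with GFP and the 7, 27, 47 and 74 aa fusions, at 513, 540, 165, 139 and 153 reads. In ZNF852 a site was edited in all 5 libraries, in 2 of 5, 2 of 10, 1 of 4, 1 of 2 and 2 of 4 reads. In ZNF587B a site was edited in 2 of 18, 2 of 10, 1 of 7, 1 of 6 and 2 of 7 reads.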
